A study of Mus musculus with 8 samples.

Results

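The 10 genes described here encode the core of the interleukin 1 system and of the inflammasome that releases its cytokines: Il1a, Il1b, Il1rn, Il18, Il1r1, Il1rap, Il1r2, Nlrp3, Pycard and Casp1. They were taken by symbol from the array annotation, each through the probe set (a group of array probes for one transcript) with the highest mean signal over all arrays, and they are 10 of 18193 genes with a probe set of their own. All 10 passed the filter on low signal that left 13054 genes for testing. Il1r1 passed on 6 of 8 arrays and the other 9 genes on all 8.

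Macrophages were sorted by the Cd11b surface protein from mammary glands of female FVB mice. The first group was MMTV-iFGFR1 transgenic mice given a dimerizer for 48 hours, compared with non-transgenic littermates (control) given the dimerizer for 48 hours. The second was MMTV-iFGFR1 transgenic mice given the dimerizer for 4 weeks, compared with control littermates given it for 4 weeks. All mice were 6 weeks old when the dimerizer was begun, so the 4 weeks mice were older at collection than the 48 hours mice, and age and time on the dimerizer cannot be told apart. The dimerizer, which joins the molecules of the inducible fibroblast growth factor receptor 1 and so activates them, was given to transgenic and control mice alike. The MMTV promoter directs the transgene to mammary epithelium. Whether the sorted cells themselves carried its messenger RNA was not tested. Each group had 2 pools of 3 mice, and each pool gave 1 Affymetrix array. The description of 1 array, transgenic 4 weeks pool 2, names non-transgenic mice, against its title, source and genotype, and it was used as transgenic.

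Interleukin 1 alpha and beta are inflammatory cytokines that bind the receptor Il1r1, which signals together with its accessory chain Il1rap. Il1rn encodes a secreted antagonist that occupies the receptor without signalling, and Il1r2 encodes a decoy receptor that binds the cytokine without signalling. Interleukin 1 beta and interleukin 18 are made as inactive precursors. The sensor Nlrp3, the adaptor Pycard (ASC) and the protease Casp1 assemble into the inflammasome, and Casp1 then cuts both precursors, so that messenger RNA levels describe the supply of the components and not the release of the active cytokines. In macrophages the genes of Il1b and Nlrp3 are known to be induced by a first inflammatory signal before the inflammasome is assembled.

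The upstream sequences of Il1a, Il1b, Il1rn and Nlrp3, the genes on which the comparisons over time turn, are shown so that the messenger RNA values can be read beside the DNA near their starts. They are the 250 bases before the most upstream start in the RefSeq promoter table used here (mouse build GRCm38.p6), at chr2:129309973-129310222 (minus strand), chr2:129371140-129371389 (minus strand), chr2:24336610-24336859 (plus strand) and chr11:59541319-59541568 (plus strand). The RefSeq gene spans of Il1a and Il1b reach farther upstream than the start in that table, so that 214 of the 250 bases shown for Il1a and 25 of those for Il1b lie inside the gene span. For Il1rn and Nlrp3, 0 bases do. Capitals mark matches, on either strand, to the AP-1 motif TGANTCA, to the PU.1-type core GAGGAA or to the NF-kB motif.
Il1a: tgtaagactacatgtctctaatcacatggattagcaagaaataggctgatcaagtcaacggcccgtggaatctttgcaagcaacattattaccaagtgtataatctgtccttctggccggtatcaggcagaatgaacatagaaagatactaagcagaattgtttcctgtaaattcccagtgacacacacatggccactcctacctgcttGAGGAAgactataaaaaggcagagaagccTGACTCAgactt
Il1b: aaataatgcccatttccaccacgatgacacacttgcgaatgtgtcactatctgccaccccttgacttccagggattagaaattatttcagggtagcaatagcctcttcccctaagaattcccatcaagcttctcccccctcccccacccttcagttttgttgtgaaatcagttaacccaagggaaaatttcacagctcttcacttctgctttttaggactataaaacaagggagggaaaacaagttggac
Il1rn: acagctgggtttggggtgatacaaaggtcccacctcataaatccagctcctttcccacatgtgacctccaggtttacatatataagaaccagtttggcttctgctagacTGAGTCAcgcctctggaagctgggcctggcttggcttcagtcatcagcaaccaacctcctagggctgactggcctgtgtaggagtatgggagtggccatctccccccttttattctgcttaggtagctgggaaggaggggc
Nlrp3: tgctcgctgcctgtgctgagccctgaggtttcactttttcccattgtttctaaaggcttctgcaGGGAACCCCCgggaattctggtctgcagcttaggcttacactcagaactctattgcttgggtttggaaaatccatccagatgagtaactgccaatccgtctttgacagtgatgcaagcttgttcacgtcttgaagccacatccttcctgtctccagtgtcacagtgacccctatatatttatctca
The AP-1 motif was found at -12 in Il1a and at -141 in Il1rn, the PU.1-type core at -41 in Il1a, and the NF-kB motif at -186 in Nlrp3, where each position is that of the match's first base counted from the start in that table. No match overlapped another. Of all 32851 windows of this length, 6.7% held the AP-1 motif, 23.3% the PU.1-type core and 7.3% the NF-kB motif. In the window of Il1b none of the 3 motifs was found. A match is a description of letters and not a binding site.

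The deposited values are linear MAS5 signals in arbitrary units, and levels were not compared between genes, since probe sets differ in brightness. Csf1r, the receptor for the macrophage growth factor, had a signal of 68311 to 93065 on the 8 arrays and Adgre1, the macrophage adhesion receptor F4/80, 9842 to 14627. Itgam, the gene of Cd11b by which the cells were sorted, gave 46.8 to 545 units, beside array medians of 96.2 to 127. RNA shortening was read from actin, as the signal of its 3' probe set over that of its 5' probe set. This ratio was 37.0 in pool 2 of control 4 weeks, against 6.84 to 13.9 elsewhere. Its mean log2 value was 3.06 ± 0.32 in transgenic and 3.88 ± 0.95 in control pools (SD, n = 4 each), exact permutation p = 0.143, two-sided. In pooled cells, fewer cells of a type and less RNA per cell cannot be told apart. Nothing says that the pools of a group were processed apart beyond coming from different mice, so p-values measure the spread between pools only.

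Il1b, Il1rn and Nlrp3 had lower signals in transgenic than in control pools at 48 hours and higher mean signals at 4 weeks. The pools of Casp1 overlapped at both times and those of Il1rn and Pycard at 4 weeks. No member passed the test in any comparison. In limma with Benjamini-Hochberg adjustment over 13054 genes, 0 of 10 members were called at an adjusted p under 0.05 at 48 hours or at 4 weeks, against 0% of all tested genes at either time. The adjusted p of the members lay between 0.976 and 0.994 at 48 hours and between 0.965 and 0.995 at 4 weeks. Before adjustment, 531 genes (4.07%) had p under 0.05 at 48 hours, among them 1 member, Nlrp3, and 660 (5.06%) at 4 weeks, among them 1 member, Il1b. Averaged over both times, 0 members had an unadjusted p under 0.05, against 4.58% of all tested genes. On simulated data of the 48 hours comparison with 13054 genes, the share of changes that the test found was 15.5% at 2-fold, 69.7% at 4-fold and 88.2% at 8-fold. In these data a mean of 9.9 unchanged genes were also called per run, over 10 runs. The simulated noise was independent between values and drawn from the fitted variances, so it held no array of poorer RNA.

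**Figure D1:**
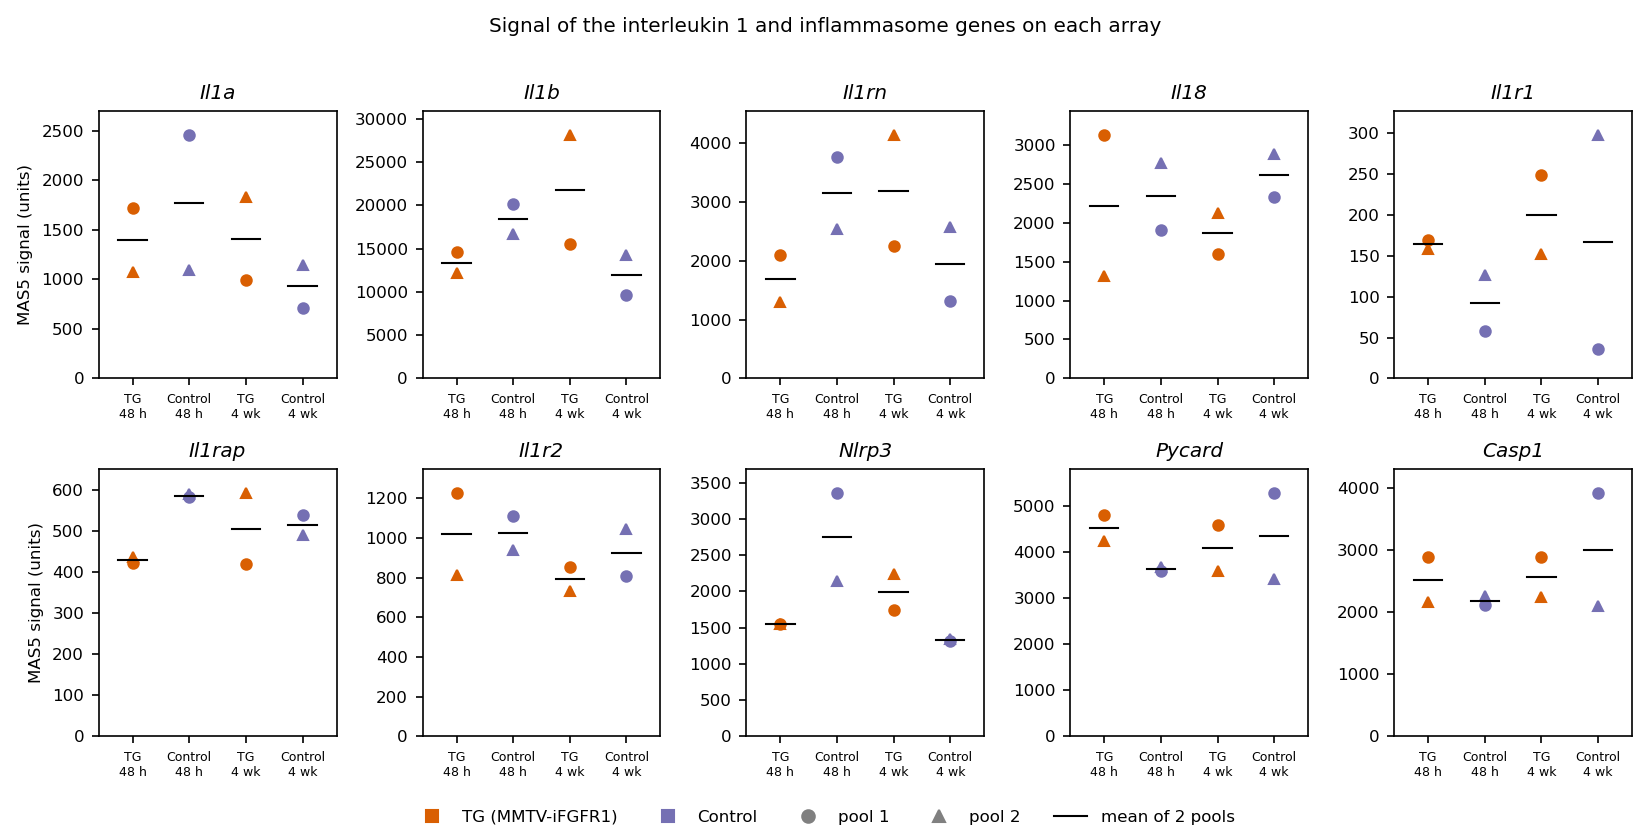
MAS5 signal (linear units, axes from 0) of the 10 genes in transgenic (TG) and control pools at 48 hours and 4 weeks; each point is 1 pool of 3 mice and the line is the mean of 2 pools. Il1b and Nlrp3 lie lower in both transgenic pools than in both control pools at 48 hours and higher at 4 weeks.

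Among the cytokines, Il1b, on chromosome 2 from 129364569 to 129371164 of GRCm38, had signals of 14617 and 12146 in the transgenic pools at 48 hours, against 20223 and 16644 in the control pools. Both transgenic pools lay below both control pools. The mean was 0.726 times that of control, with a log2 difference of -0.46 (SE 0.29, 95% interval -1.11 to 0.19), adjusted p = 0.976 in limma. At 4 weeks Il1b had signals of 15582 and 28089 in transgenic pools, against 9627 and 14295 in control pools. Here both transgenic pools lay above both control pools, though pool 1 by a small margin. The log2 difference was 0.83 (SE 0.29, 95% interval 0.19 to 1.48), adjusted p = 0.965 in limma. Without transgenic 4 weeks pool 2, the highest array for this gene, it was 0.41, and without control 4 weeks pool 2 it was 1.12.

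Il1a, whose product acts from the cell surface and from dying cells as well as after secretion, lies beside Il1b on chromosome 2, from 129299609 to 129310186. Its signals were 1716 and 1073 in transgenic pools at 48 hours, against 2450 and 1089 in control pools, and the groups overlapped. At 4 weeks they were 993 and 1825 in transgenic pools, against 712 and 1146 in control pools, again with overlap. Control 48 hours pool 1 had the highest Il1a signal of the 8 arrays and control 4 weeks pool 1 the lowest. The log2 difference was -0.26 (SE 0.44) at 48 hours with 0.31 without control 48 hours pool 1 and 0.07 without transgenic 48 hours pool 2, and it was 0.56 (SE 0.44) at 4 weeks.

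Il18, a cytokine that many cells store as a ready precursor, lies on chromosome 9 from 50554700 to 50581841. It had signals of 3119 and 1314 in transgenic pools at 48 hours, against 1908 and 2767 in control pools. The transgenic pools lay on either side of the control pools. At 4 weeks its signals were 1600 and 2125 in transgenic pools, against 2326 and 2886 in control pools. Both transgenic pools were below both control pools, with a log2 difference of -0.48 (SE 0.38, 95% interval -1.33 to 0.36), adjusted p = 0.986 in limma.

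The antagonist Il1rn, on chromosome 2 from 24336860 to 24351491, had signals of 2097 and 1292 in transgenic pools at 48 hours, against 3754 and 2534 in control pools. The transgenic pools were the lower ones without overlap, and the mean was 0.539 times that of control. The log2 difference was -0.89 (SE 0.40, 95% interval -1.79 to 0.005), adjusted p = 0.976 in limma. At 4 weeks Il1rn had signals of 2249 and 4126 in transgenic pools, against 1309 and 2566 in control pools. The groups overlapped, since transgenic pool 1 lay between the control pools, and the log2 difference was 0.72 (SE 0.40). It was 0.29 without transgenic 4 weeks pool 2, 0.25 without control 4 weeks pool 1 and 1.20 without control 4 weeks pool 2. A second bright probe set of Il1rn gave log2 differences of -0.58 (SE 0.38) at 48 hours and 0.84 (SE 0.38) at 4 weeks. Another, with a mean signal of 83.8 and above the array median on 3 arrays, gave -0.03 (SE 0.87) and -0.55 (SE 0.87).

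Of the receptor genes, Il1r1, which carries the signal in many stromal and epithelial cells, was dim. It had signals of 169 and 159 in transgenic pools at 48 hours, against 57.8 and 127 in control pools. At 4 weeks it had 249 and 152 in transgenic pools, against 36.6 and 297 in control pools, so that the control pools held both the lowest and the highest array. Its log2 difference was 0.72 (SE 0.69) at 48 hours and 0.61 (SE 0.69) at 4 weeks, and without control 4 weeks pool 1 the second was -0.54. The gene lies on chromosome 1 from 40222480 to 40316201.

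The accessory chain Il1rap, on chromosome 16 from 26581509 to 26730128, had signals of 422 and 438 in transgenic pools at 48 hours, against 584 and 589 in control pools. The pools of each genotype were close together and the groups did not overlap. The log2 difference was -0.42 (SE 0.28, 95% interval -1.05 to 0.21), adjusted p = 0.976 in limma. At 4 weeks the signals were 421 and 592 in transgenic pools, against 538 and 491 in control pools, with a log2 difference of -0.04 (SE 0.28). Its second brightest of 5 probe sets gave -0.09 (SE 0.50) at 48 hours, with a mean signal of 155 units.

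The decoy receptor Il1r2, on chromosome 1 from 40084692 to 40125230, had signals of 1225 and 813 in transgenic pools at 48 hours, against 1110 and 939 in control pools. At 4 weeks it had 854 and 733 in transgenic pools, against 806 and 1045 in control pools. The groups overlapped at both times. Its log2 difference was -0.03 (SE 0.29, 95% interval -0.67 to 0.61) at 48 hours and -0.21 (SE 0.29, 95% interval -0.85 to 0.44) at 4 weeks.

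Among the inflammasome genes, the sensor Nlrp3, on chromosome 11 from 59541569 to 59566955, had signals of 1545 and 1546 in transgenic pools at 48 hours, against 3353 and 2150 in control pools. The transgenic pools were nearly equal and both below the control pools, at 0.562 times their mean. The log2 difference was -0.79 (SE 0.27, 95% interval -1.38 to -0.19), unadjusted p = 0.0151 and adjusted p = 0.976 in limma, and it was -0.47 without control 48 hours pool 1. At 4 weeks Nlrp3 had signals of 1741 and 2245 in transgenic pools, against 1310 and 1344 in control pools. The control pools were now the lower and the closer pair. The log2 difference was 0.57 (SE 0.27, 95% interval -0.03 to 1.16), adjusted p = 0.973 in limma.

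The adaptor Pycard, on chromosome 7 from 127991373 to 127993867, had signals of 4802 and 4223 in transgenic pools at 48 hours, against 3592 and 3664 in control pools. It was the only inflammasome member of the 3 with both transgenic pools above both control pools at 48 hours, at a log2 difference of 0.31 (SE 0.25, 95% interval -0.25 to 0.87), adjusted p = 0.976 in limma. At 4 weeks its signals were 4589 and 3590 in transgenic pools, against 5265 and 3408 in control pools, and the transgenic pools lay between the control pools. The log2 difference at 4 weeks was -0.06 (SE 0.25). A dim second probe set of Pycard, with a mean signal of 123 units and above the array median on 6 arrays, gave -0.87 (SE 0.52) at 4 weeks.

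The protease Casp1, on chromosome 9 from 5298517 to 5307281, had signals of 2888 and 2155 in transgenic pools at 48 hours, against 2114 and 2254 in control pools. At 4 weeks it had 2883 and 2247 in transgenic pools, against 3908 and 2094 in control pools. The groups overlapped at both times, and control 4 weeks pool 1 held the highest signal. Its log2 difference was 0.19 (SE 0.31, 95% interval -0.50 to 0.88) at 48 hours and -0.17 (SE 0.31, 95% interval -0.86 to 0.52) at 4 weeks. With the actin ratio in the model the Casp1 difference was -0.015 (SE 0.24) at 48 hours and -0.62 (SE 0.28) at 4 weeks, the second with adjusted p = 0.778 in limma.

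Counted over the 10 members, 4 had both transgenic pools below both control pools at 48 hours (Il1b, Il1rn, Il1rap and Nlrp3), against 16.1% of all tested genes, and 2 had both above (Il1r1 and Pycard), against 18.9%. At 4 weeks 2 members had both transgenic pools above (Il1b and Nlrp3), against 14.7% of all tested genes, and 1 had both below (Il18), against 17.2%. The median log2 difference of the members was -0.22 at 48 hours, beside 0.04 over all tested genes, and 0.26 at 4 weeks, beside -0.02. Since the members were chosen with earlier results of these data known, these counts and medians are a description.

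**Figure D2:**
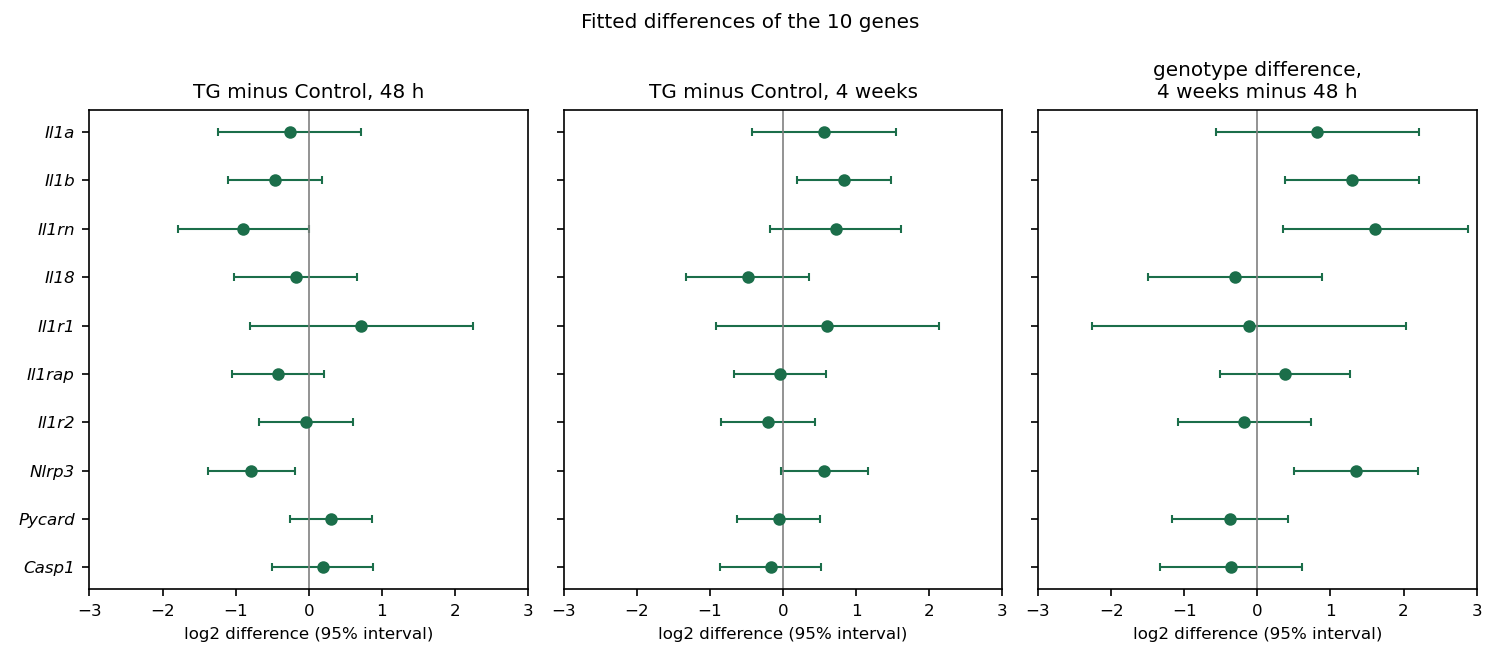
Log2 difference of each gene (points) with its 95% interval (bars, from limma, not adjusted for the number of genes): transgenic (TG) minus control at 48 hours, the same at 4 weeks, and the second minus the first. In the third panel the intervals of Il1b, Il1rn and Nlrp3 lie above 0, from 0.38, 0.35 and 0.50 upwards.

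Whether the genotype difference itself differed between the times was tested with an interaction term. It was 1.29 (SE 0.41, 95% interval 0.38 to 2.21) for Il1b, unadjusted p = 0.0103 in limma. For Il1rn it was 1.62 (SE 0.57, 95% interval 0.35 to 2.89), unadjusted p = 0.0175 in limma. For Nlrp3 it was 1.35 (SE 0.38, 95% interval 0.50 to 2.20), unadjusted p = 0.00513 in limma, and the gene ranked 52 of 13054 by p. These 3 members had an unadjusted p under 0.05, against 4.74% of all tested genes. After adjustment over all genes each had adjusted p = 0.988 in limma, and 0 of 10 members and 0% of all genes were called. The members were chosen with earlier results of these data known, and Il1b and Il1rn varied together over the arrays. The count of 3 is therefore a description. The other 7 members had unadjusted p-values of 0.216 (Il1a) to 0.908 (Il1r1) in limma.

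Only Il1b and Nlrp3 among the 10 had both transgenic pools below both control pools at 48 hours and above them at 4 weeks, a pattern that 300 of 13054 tested genes (2.30%) had. None of the 10 had the opposite pattern, which 3.20% of tested genes had. The Il1b term was 0.87 to 1.72, the Il1rn term 1.14 to 2.09 and the Nlrp3 term 1.03 to 1.67 when each pool was left out in turn. With the actin ratio in the model, the term was 1.40 for Il1b, 1.77 for Il1rn and 1.34 for Nlrp3.

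Set beside each other by time, the 2 genotypes had time differences of opposite sign for Il1b, Il1rn and Nlrp3. These comparisons use the same arrays as those above. In transgenic pools, 4 weeks minus 48 hours was 0.65 (SE 0.29) for Il1b, 0.88 (SE 0.40) for Il1rn, 0.35 (SE 0.27) for Nlrp3 and -0.01 (SE 0.44) for Il1a on the log2 scale. Il1b, Il1rn and Nlrp3 had both 4 weeks pools above both 48 hours pools, 3 of 10 members, against 14.1% of all tested genes, and 0 members had both below, against 14.5%. No member was called (adjusted p = 1 in limma for each, 0% of all genes called), and 1 member, Il1b, had an unadjusted p under 0.05, against 2.20% of all tested genes.

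In control pools the same differences were -0.64 (SE 0.29) for Il1b, -0.74 (SE 0.40) for Il1rn, -1.0 (SE 0.27) for Nlrp3 and -0.83 (SE 0.44) for Il1a. Il1b, Nlrp3 and Il1rap had both 4 weeks pools below both 48 hours pools, 3 of 10 members, against 13.7% of all tested genes, and 0 members had both above, against 18.0%. Nlrp3 had the lowest adjusted p of the members, 0.587 in limma, and was the 1 member with an unadjusted p under 0.05, against 6.16% of all tested genes. In this comparison 1 gene (0.00766%) was called, F5, the gene of coagulation factor V, at a log2 difference of -2.36, adjusted p = 0.0398 in limma, named here because it was the only call.

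**Figure D3:**
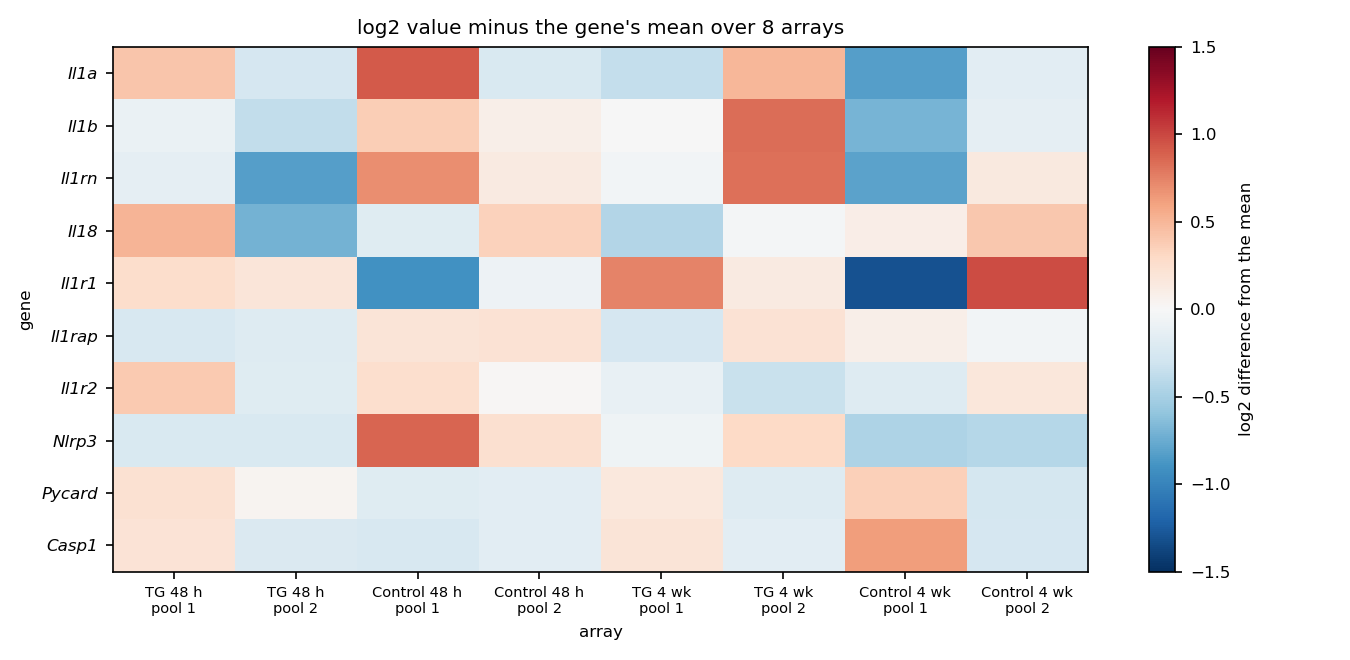
Log2(signal + 30.8) of each gene minus its own mean over the 8 arrays, with 1 column per pool; red is above and blue below that mean. Il1a, Il1b and Il1rn were highest or next to highest in control 48 hours pool 1 and transgenic 4 weeks pool 2 and lowest or next to lowest in control 4 weeks pool 1, at 0.37, 0.84 and -0.70 for Il1b.

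The members did not vary as 1 block over the arrays. Across 45 pairs of members, Il1b and Il1rn had a Pearson correlation of 0.93 over the 8 arrays (Spearman 0.83), and 0.93 without the 2 arrays farthest from the Il1b median. Il1b and Nlrp3 had 0.74 (Spearman 0.91), and 0.88 without those arrays. Il1a and Il1b had 0.76 (Spearman 0.71), and 0.60 without the 2 arrays farthest from the Il1a median. A second pair stood apart from these: Casp1 and Pycard, the protease and its adaptor, had 0.90 (Spearman 0.88), and 0.77 without the 2 arrays farthest from the Casp1 median. Pycard and Il1rn had -0.73 (Spearman -0.79). Within groups, where each pool is set against its group's mean, the correlation was 0.95 for Il1b with Il1rn, 0.63 for Il1b with Nlrp3 and 0.98 for Casp1 with Pycard. The 2 pools of a group deviate from its mean by equal and opposite amounts. The within-group values thus rest on 1 independent deviation from each of 4 groups. All these correlations come from 8 arrays that share amplification and scaling, and they carry no test.

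**Figure D4:**
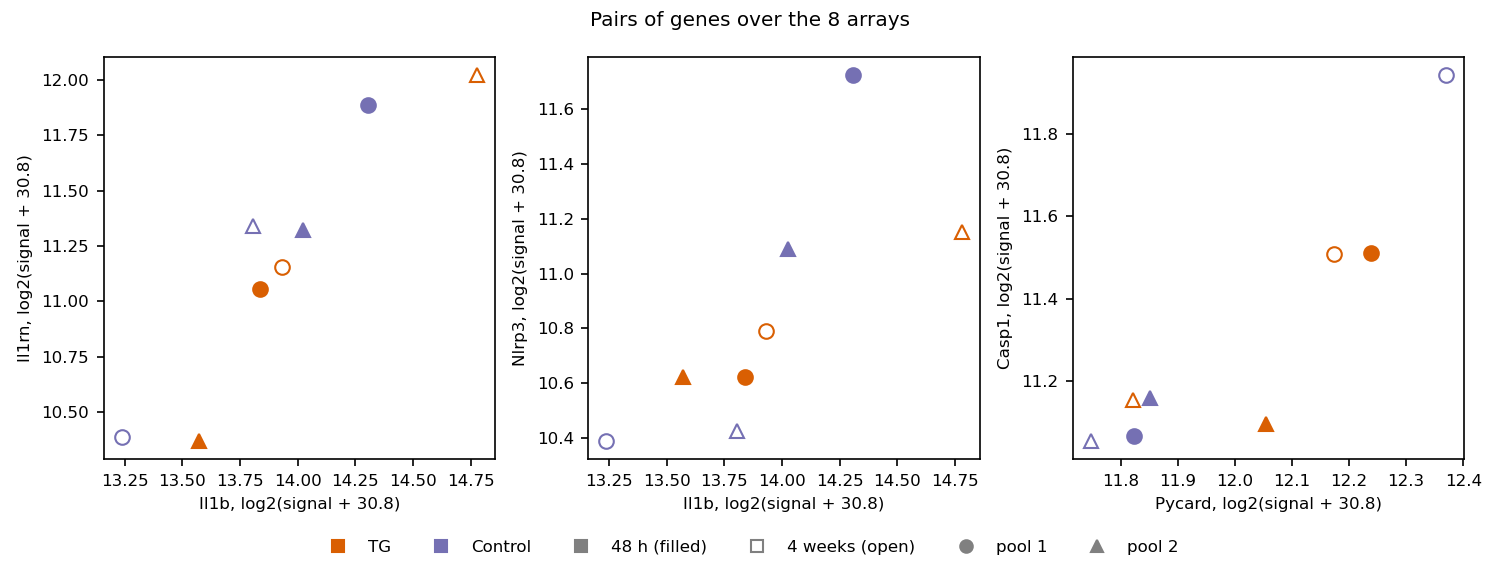
Log2(signal + 30.8) of 2 genes against each other, 1 point per pool, for Il1b with Il1rn, Il1b with Nlrp3 and Pycard with Casp1 (orange transgenic, TG, and purple control; filled 48 hours, open 4 weeks). Il1b and Il1rn line up over all 8 arrays (Pearson correlation 0.93), and control 4 weeks pool 1 is lowest in Il1b and highest in Casp1 and Pycard.

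Among all tested genes, the 5 most like Il1b over the 8 arrays were Pip5k1a, a lipid kinase, at a Pearson correlation of 0.96, Plek, the leukocyte protein pleckstrin, at 0.96, H2-Oa, a chain of the MHC class II accessory molecule DO, at 0.95, Ank, a pyrophosphate transporter, at 0.95, and Slamf8, a surface receptor of myeloid cells, at 0.95. Il1rn ranked 12 of 13053 in this order. The 5 most like Il1rn were Clec7a, the fungal glucan receptor Dectin-1, at 0.96, H2-Oa at 0.96, Cd52, a leukocyte surface protein, at 0.95, Ddx43 at 0.94 and Arhgap6 at 0.94. Of all 13053 genes, 0.215% had a correlation over 0.9 with Il1b and 0.222% with Il1rn. The log2 difference of Clec7a was -0.72 at 48 hours and 0.47 at 4 weeks, and that of Slamf8 was -0.41 and 0.72. That of Pip5k1a was -0.13 and 0.30 and that of Arhgap6 -0.31 and 0.20. All were picked for their correlation over these same 8 arrays, so a like pattern follows from the choice.

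The rest of the interleukin 1 family had no call. Of 11 tested relatives among 15 listed, 4 had a positive and 7 a negative difference at 48 hours, with a median of -0.04, and at 4 weeks the median was 0.00. At 48 hours 3 had both transgenic pools below both control pools, against 16.1% of all tested genes, and 2 both above, against 18.9%. At 4 weeks 1 had both below, against 17.2%, and 1 both above, against 14.7%. Il18r1, the ligand-binding chain of the interleukin 18 receptor, had signals of 44.7 and 61.5 in transgenic pools at 48 hours, against 169 and 290 in control pools, a log2 difference of -1.60 (SE 0.66), adjusted p = 0.976 in limma. The array medians lay between 96.2 and 127 units, so the transgenic values were below their arrays' medians. Il33, an alarmin of epithelial and stromal cells, had a log2 difference of 0.66 (SE 0.52) at 48 hours and 0.78 (SE 0.52) at 4 weeks. Il1f8, a member of the interleukin 36 group, had -0.85 (SE 0.63) at 48 hours, Il18rap, the second chain of the interleukin 18 receptor, -0.90 (SE 0.65) at 4 weeks and Il1rl2, the interleukin 36 receptor, 0.53 (SE 0.32) at 4 weeks. Il1f8 and Il18rap were dim and their groups overlapped at those times. Il1f8 had 52.0 and 136 in transgenic pools, against 244 and 132 in control pools. Il18rap had 25.2 and 172, against 209 and 134.

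Of 16 tested inflammasome partners among 22 listed, 0 were called at either time. At 48 hours 11 had a negative difference and the median was -0.20, and 6 had both transgenic pools below both control pools against the 16.1% of all tested genes given above. Another 2 had both above, against 18.9%. At 4 weeks the median was -0.06, 3 had both below, against 17.2%, and 1 had both above, against 14.7%. Casp4, the mouse caspase 11 that senses bacterial lipopolysaccharide inside the cell, had signals of 4541 and 3858 in transgenic pools at 48 hours, against 9210 and 4835 in control pools, a log2 difference of -0.67 (SE 0.29), adjusted p = 0.976 in limma. Control 48 hours pool 1 was well above the other 3. Naip5, a sensor of bacterial flagellin, had signals of 877 and 1139 in transgenic pools at 48 hours, against 1569 and 1646 in control pools, and 1042 and 1164 in transgenic pools at 4 weeks, against 1316 and 2312 in control pools. Its log2 difference was -0.67 (SE 0.30) at 48 hours and -0.65 (SE 0.30) at 4 weeks, with the transgenic pools lower at both times. Nlrp12, another sensor of the Nlrp family, had -1.13 (SE 0.53) at 48 hours. It was dim, with signals of 84.7 and 118 in transgenic pools, beside medians of 96.2 and 106 on those arrays, and 291 and 225 in control pools. At 4 weeks Nek7, a kinase that Nlrp3 needs to assemble, had 0.32 (SE 0.20) and Naip6 -0.30 (SE 0.24).

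Of 17 tested genes of receptor signalling among 20 listed, 0 were called, and the medians were 0.00 at 48 hours and -0.01 at 4 weeks. At 48 hours 5 had both transgenic pools below both control pools, against 16.1% of all tested genes, and 2 both above, against 18.9%. At 4 weeks 4 had both below, against 17.2%, and 0 both above, against 14.7%. Irak1, a kinase recruited to the activated receptor, had signals of 1412 and 1807 in transgenic pools at 4 weeks, against 2225 and 2725 in control pools, a log2 difference of -0.61 (SE 0.24), adjusted p = 0.965 in limma. Both transgenic pools were below both control pools. Myd88, the adaptor of the receptor, had -0.69 (SE 0.32) at 4 weeks and Ikbkg, the regulatory subunit of the IkB kinase, -0.62 (SE 0.36). At 48 hours Irak3, an inhibitory member of the Irak kinases, had 0.37 (SE 0.25), Irak2 -0.54 (SE 0.41) and Nfkbia, the inhibitor of NF-kB, -0.31 (SE 0.17).

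Genes known to respond to interleukin 1 were given by 14 tested members of 18 listed, of which 0 were called at either time. At 48 hours 10 had a negative difference, with a median of -0.08, and 6 had both transgenic pools below both control pools, against 16.1% of all tested genes. Both were above for 1 gene, against 18.9%. At 4 weeks 10 had a positive difference, with a median of 0.31, and 4 had both transgenic pools above, against 14.7% of all tested genes. None had both below, against 17.2%. Ptgs2, the inducible cyclooxygenase, had signals of 4839 and 6452 in transgenic pools at 48 hours, against 9579 and 8703 in control pools. At 4 weeks it had 5918 and 9543 in transgenic pools, against 3276 and 6287 in control pools. Its log2 difference was -0.71 (SE 0.33) at 48 hours and 0.72 (SE 0.33) at 4 weeks, adjusted p = 0.976 and 0.965 in limma. At 4 weeks Il6 had 0.73 (SE 0.38) and Tnfaip3, a brake on NF-kB signalling, 0.64 (SE 0.29). Lcn2, an iron-binding protein that the mammary epithelium also makes, had signals of 913 and 700 in transgenic pools at 48 hours, against 269 and 261 in control pools, a log2 difference of 1.49 (SE 0.39), adjusted p = 0.976 in limma, and Cxcl2 had -0.30 (SE 0.19).

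Markers of other Cd11b-positive or adherent cells were summed on each array. Neutrophils are a known source of Il1b and Il1r2. The summed signal of 10 neutrophil genes of 12 listed was 5494 to 6533 in transgenic pools at 48 hours, against 11048 to 13312 in control pools, and 3091 to 4196 in transgenic pools at 4 weeks, against 6116 to 18478 in control pools. It was thus lower in the transgenic pools at both times. What neutrophils contribute to the Il1b signal was not tested. S100a8, a granulocyte calcium-binding protein, gave the largest part of this sum, with 1431 to 11267 units over the 8 arrays. The list did not move as one at 48 hours: Ltf, the granule protein lactoferrin, had signals of 620 and 866 in transgenic pools, against 277 and 331 in control pools, a log2 difference of 1.19, beside -1.21 for S100a8. At 4 weeks the difference was -1.35 for Ltf and -1.76 for S100a8.

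The sum of 7 dendritic cell genes of 7 listed was 2515 to 3920 in transgenic pools at 48 hours, against 3415 to 4368 in control pools. At 4 weeks it was 4334 to 5842 in transgenic pools, against 3127 to 3702 in control pools, and the groups did not overlap. The 7 genes differed among themselves at 4 weeks, with log2 differences of 0.95 for Cd209a, 0.95 for Ccr7 and 0.61 for Itgae, but -0.01 for Flt3, -0.12 for Batf3, -0.39 for Zbtb46 and -0.84 for Xcr1. The sum of 5 T and NK cell genes of 6 listed was 1961 to 3134 in transgenic pools at 48 hours, against 2772 to 5816 in control pools, and 1276 to 1387 in transgenic pools at 4 weeks, against 780 to 898 in control pools. The sum of 3 monocyte genes of 6 listed was 4251 to 5098 in transgenic pools at 48 hours, against 3320 to 5226 in control pools, and 3612 to 4612 in transgenic pools at 4 weeks, against 3931 to 4458 in control pools.

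The sum of 10 epithelial genes was 12333 to 14180 in transgenic pools at 48 hours, against 2819 to 3035 in control pools, and 8505 to 13299 in transgenic pools at 4 weeks, against 7280 to 15059 in control pools. Csn3 gave the largest part at 48 hours, with 6146.5 and 7000.3 in transgenic pools, against 855 and 974 in control pools. The log2 difference at 48 hours was -0.81 for Cldn4, -0.18 for Krt14 and -0.05 for Krt5, and positive for the others. The sum of 7 fibroblast genes was 71577 to 74681 in transgenic pools at 48 hours, against 37782 to 84901 in control pools, and 65160 to 84672 in transgenic pools at 4 weeks, against 56504 to 75931 in control pools. The sum of 8 macrophage genes was 182240 to 189750 in transgenic pools at 48 hours, against 192900 to 222950 in control pools, and 189960 to 212430 in transgenic pools at 4 weeks, against 205560 to 207080 in control pools. At 48 hours it was thus lower in both transgenic pools. The log2 difference then was -0.35 for Cd14, -0.26 for Csf1r, -0.16 for Adgre1 and -0.07 for Cd68. It was positive, at 0.22 to 0.36, for Mertk, Mrc1, Fcgr1 and Itgam. The sum of 4 endothelial genes was 764.5 to 1966 in transgenic pools at 48 hours, against 921 to 1039 in control pools, and 833 to 1087 in transgenic pools at 4 weeks, against 1080 to 1104 in control pools. The sum of 5 mast cell and basophil genes was 1042 to 1420 in transgenic pools at 48 hours, against 1086 to 1641 in control pools, and 1536 to 1597 in transgenic pools at 4 weeks, against 1148 to 1456 in control pools. The dendritic, T and NK, and mast cell and basophil sums were thus higher in both transgenic pools than in both control pools at 4 weeks. Cpa3, the brightest mast cell and basophil gene, overlapped at 4 weeks, with 1214 and 1151 in transgenic pools, against 1247 and 898 in control pools. Its log2 difference was 0.155, beside 0.311 for Kit and 1.0 for Tpsb2, the other tested genes of that list. In the T and NK list the log2 difference at 4 weeks was 1.11 for Cd8a, the brightest of its 5 genes on each array, and -0.51 to 0.36 for the other 4 genes. Every deposited signal was above 0 (lowest 0.3), so a marker signal above 0 does not show that its cells were present. Camp, Fcer1a and Mcpt8 did not pass the filter on low signal. The part of these cells in the signals of the 10 genes was not tested.

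**Figure D5:**
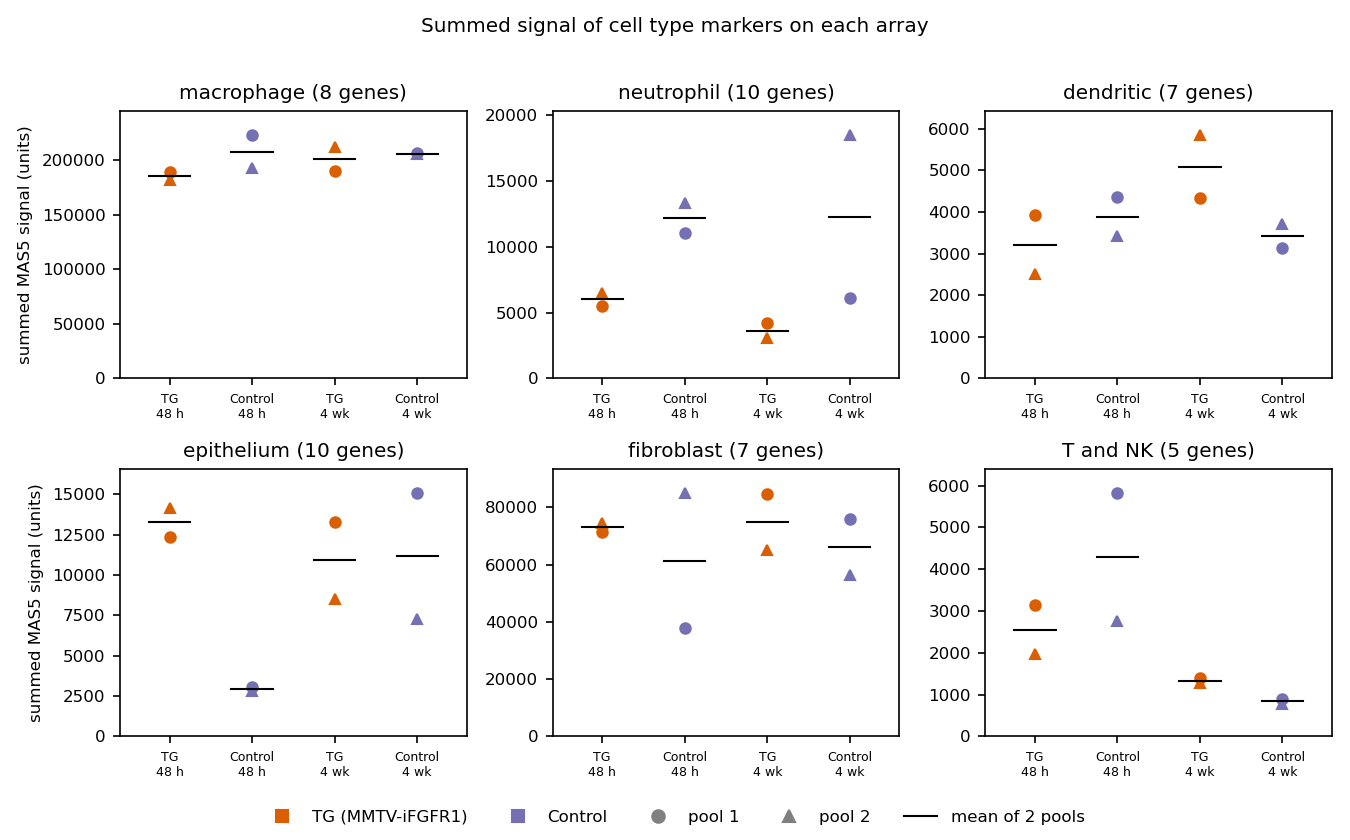
Summed MAS5 signal (linear units, axes from 0) of the marker genes of 6 cell types in transgenic (TG) and control pools at 48 hours and 4 weeks; points are pools and lines means of 2 pools. The neutrophil sum is lower in transgenic pools at both times, and the dendritic sum is higher in them at 4 weeks (4334 to 5842 in transgenic pools, against 3127 to 3702 in control pools), with 4 of its 7 genes having a negative log2 difference.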

How the data were processed

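RNA of sorted mammary cells was amplified in a two-cycle protocol, per the labels' protocols, and hybridised to Affymetrix mouse arrays. The deposited table gives 1 signal intensity for each probe set. Per the submitters' processing notes the authors computed it with MAS5, and a version is not given in the sources used here. The trimmed mean of each array was 500 units. The table holds 45101 probe sets, including 64 controls of the array maker. The platform annotation gives a single symbol to 34945 of them, several symbols to 932 and no symbol to 9160. Only those with a single symbol were used, and 34741 of these matched RefSeq by gene identifier. Each gene's probe set with the highest mean signal was kept if 2 or more arrays showed it above their own median.

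Values became log2(signal + 30.8), with 30.8 being the lower quartile (25th percentile) over the table, so fitted differences understate those of dim genes. Tests used limma 3.58.1 in R 4.3.3 (lmFit, eBayes with a trend, 4 group means, 4 residual and a median of 6.22 prior degrees of freedom), two-sided, with Benjamini-Hochberg adjustment over 13054 genes and a threshold of 0.05. Simulated data with 200 changed genes gave the recovery quoted above. The number of arrays limits the precision. The genotype effect over both times, which averages opposite differences, was fitted for all genes, with 0 called (598 at an unadjusted p under 0.05), and is not given per member. Named genes were the 10 members, up to 3 of each pathway list by p at each time and the 5 most like Il1b and Il1rn. Csf1r, Adgre1, Itgam, S100a8 and F5 were named besides. The members and lists were chosen with earlier results of these data known. Alternatives covered offset, scaling, filter, probe set, prior trend, array weights, pool number, arrays fitted, RNA quality and each pool left out. Plots were made with matplotlib 3.10.9 under Python 3.11.15. Listed genes without a probe set of their own were not analysed here.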

Additional observations from a re-analysis of the deposited data

Results flagged for a closer look

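Il1b and Nlrp3 stood out because every transgenic pool lay below every control pool at 48 hours and above it at 4 weeks. The genotype difference at 4 weeks minus that at 48 hours was 1.29 (SE 0.41) for Il1b and 1.35 (SE 0.38) for Nlrp3 on the log2 scale, adjusted p = 0.988 for each in limma, so neither difference between the times passed the test. Irak3 had the opposite pattern, with transgenic pools above control at 48 hours and below at 4 weeks and a term of -0.68 (SE 0.35), adjusted p = 0.988 in limma. Sod2, the mitochondrial superoxide dismutase among the genes that respond to interleukin 1, had the pattern of Il1b and Nlrp3 at a smaller size, with a term of 0.42 (SE 0.29), adjusted p = 0.988 in limma, and is named here after its values were seen. Of all tested genes, 2.30% had the first pattern and 3.20% the second.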

How the results depend on the processing

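Of 682 recomputed values of the 10 genes, 0 passed the threshold (lowest adjusted p = 0.341 in limma) and 28 had the other sign. The signs of Il1b, Il1rn and Nlrp3 held under all alternatives run, at 48 hours, at 4 weeks and in the difference between them. Not among these was the dimmest probe set of Il1rn, which gave -0.55 (SE 0.87) at 4 weeks and -0.52 (SE 1.23) for that difference. No alternative counted transgenic 4 weeks pool 2 as control, though its description names non-transgenic mice. That array had the highest Il1b and Il1rn signals of the 8. Were it counted as control, transgenic 4 weeks pool 1 would lie within the range of the control pools for Il1b, Il1rn and Nlrp3. For Il1b that pool had 15582, beside 9627, 14295 and 28089. For Il1rn it had 2249, beside 1309, 2566 and 4126, and for Nlrp3 1741, beside 1310, 1344 and 2245. The 4 weeks signs were thus not tested apart from this label. Leaving out each pool in turn gave -0.60 to -0.32 for Il1b, -1.24 to -0.55 for Il1rn and -1.10 to -0.47 for Nlrp3 at 48 hours, and 0.41 to 1.26, 0.25 to 1.20 and 0.38 to 0.75 at 4 weeks. Other signs changed with single pools. At 48 hours the ranges were -0.84 to 0.31 for Il1a, -0.32 to 0.26 for Il1r2, -0.79 to 0.44 for Il18 and -0.018 to 0.40 for Casp1. At 4 weeks they were -0.54 to 1.75 for Il1r1, -0.27 to 0.19 for Il1rap, -0.61 to 0.28 for Casp1 and -0.37 to 0.25 for Pycard. For the difference between the times they were -1.26 to 1.03 for Il1r1, -0.46 to 0.11 for Il1r2, -0.92 to 0.31 for Il18 and -0.80 to 0.087 for Casp1, and for 4 weeks minus 48 hours in transgenic pools -0.44 to 0.42 for Il1a. The last was also 0.010 under quantile normalization and 0.007 with the actin ratio as a covariate, under which Casp1 was -0.015 at 48 hours and the Il1r1 difference between the times 0.48. The second brightest probe set of Il1rap turned its difference between the times to -0.035. The cause was not tested.

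The count of genes called stayed at 0 or 1 for each genotype comparison when a pool was left out. In the 4 arrays of a comparison alone it was 1 at 48 hours and 1 at 4 weeks. For 4 weeks minus 48 hours in control pools it was 1, and it was 0 to 7 when a pool was left out, 0 with the stricter filter at the 75th percentile, the second brightest probe sets, no prior trend, array weights or the 4 arrays alone, and 7 with the actin ratio as a covariate. For the same times in transgenic pools it was 0 to 1 when a pool was left out. With the pool number as a replicate block it was 2 at 4 weeks and 4 for 4 weeks minus 48 hours in control pools. Deviations of pools numbered 1 correlated at 0.02 across genes between the genotypes at 48 hours and 0.12 at 4 weeks, so the numbers were not taken to pair the samples, and the block called no member. Of 150 recomputed medians of the pathway lists, 18 moved by more than the spread between pools.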
